A study of Catostomus macrocheilus with 21 samples.

Results

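Sister contigs are sequences that a transcriptome assembler placed in 1 assembly group but did not join. The array measured here was built from sequence assemblies of the largescale sucker (Catostomus macrocheilus), and many probe names carry an assembly number followed by a contig number within it. Probes were kept if they were well above background on all 21 arrays, and if at least 2 different contigs of their assembly number met that condition. This gave 521 of the 14758 probes on the array, or 3.53%, and 7.38% of the 7064 probes that were well above background on all 21 arrays. They fell into 212 assembly groups. No file used here pairs a probe with a gene, so probes are called by their names in the files and by assembly and contig number.

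The study measured liver RNA of wild fish from the Columbia River on 1-colour Agilent arrays, with 1 array for each fish. Per the labels all fish were reproductive adults, and the groups differed in collection site: 7 fish came from Longview, 6 from Columbia City and 8 from Skamania. The study asked how contaminant exposure relates to gene expression. No contaminant level, sex or size of a fish was used here, so a site stands for everything that differed between the fish caught there.

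An assembler keeps contigs apart when their reads overlap in part but disagree. Alleles of a gene, splice forms, members of a gene family and stretches that share a repeat are all known to have this effect. Suckers descend from an ancestor that doubled its whole genome, and part of the resulting gene copies are still kept as pairs. Such copies are known to differ in level between tissues and individuals in many fish. A probe for 1 contig can also bind RNA of its sister where their sequences are alike, and how alike the probes are was not tested, because no probe sequence was at hand.

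Of the 12475 probes with an assembly and a contig number, 1231 belonged to the 526 assembly numbers with at least 2 contigs on the array. Of these 1231 probes, 715 were well above background on all 21 arrays, 425 on 1 to 20 arrays and 91 on none. At least 2 contigs qualified in 212 groups, exactly 1 contig qualified in 194, and no contig did in 120. In 24 of the 194 groups with a single qualifying contig, a sister was well above background on no array. The 212 groups were mostly small: 186 held 2 qualifying contigs, 15 held 3, 7 held 4, 2 held 5 and 1 held 6. The remaining one, assembly number 4, held 60 qualifying contigs of 97 on the array, with contig numbers up to 1272. It supplied 1770 of all 2078 sister pairs and is described on its own. The other 211 groups held 461 probes and 308 pairs.

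Levels are log2 processed signals relative to the 75th percentile of each array, so a level of 0 is that percentile. An array had between 8167 and 11801 probes clearly over its background. The 21 arrays lay on 3 slides, and each slide held fish of all 3 sites. No spot was saturated, and 2 values were missing among the 521 probes. Mean levels of the members ran from -3.52 to 8.88 with a median of 0.77, against a median of 0.05 over the 7064 probes. Of the 100 brightest probes on the array, 6 were members. A difference between the levels of 2 probes also holds the difference in how well each probe binds, so it is a difference in signal, not in RNA amount. The comparison that does not depend on this is whether the difference stayed the same from fish to fish.

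Outside assembly number 4, sister contigs tended to vary together over the fish. Pearson's r between the 2 levels had a median of 0.35 over the 308 pairs, with quartiles at 0.005 and 0.626, and it was above 0 in 233 pairs, or 75.6%. The comparison set was every pair that was not a sister pair among the 7001 bright probes with a value on every array, with or without an assembly number, taken at the same mix of brightness (bright means well above background on all 21 arrays), and its median r was 0.008. In 38 sister pairs, or 12.3%, r was at least 0.8, against 0.220% of the other pairs. At the other end, r was below 0.3 in 141 sister pairs, or 45.8%. These values are descriptions with no test: all pairs share the same 21 arrays and the same scaling, pairs of 1 group share probes, and binding across sisters would also raise r.

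Values above the 95th percentile of other pairs of the same brightness were found for 33.1% of the 308 pairs, and values below the 5th percentile for 3.90%. The median r was positive within every site and slide. With the site means removed the median r was 0.316, and with the slide means removed it was 0.335. Within the slides it was 0.390 over the 6 fish of slide 1, 0.421 over the 8 fish of slide 2 and 0.362 over the 7 fish of slide 3. Within the sites it was 0.436 in Longview fish, 0.359 in Columbia City fish and 0.313 in Skamania fish.

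**Figure D1:**
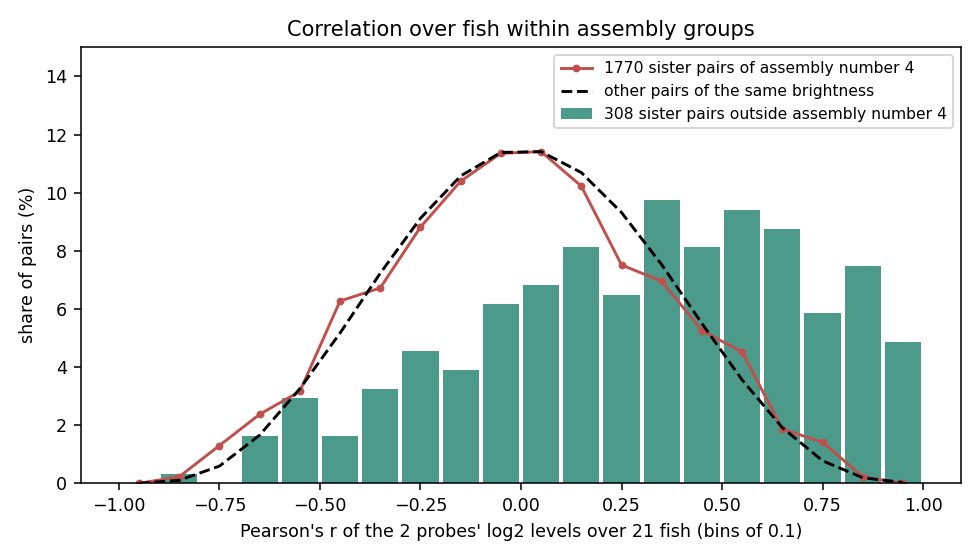
Share of pairs in percent (vertical axis) by Pearson's r of the 2 log2 levels over 21 fish (horizontal axis, bins of 0.1), for the 308 sister pairs outside assembly number 4 (bars), the 1770 sister pairs of assembly number 4 (red line) and other pairs at the brightness of the 308 pairs (dashed line). The bars lie to the right, with 12.3% at 0.8 or above, whereas the red line runs along the dashed one.

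The tightest pair was assembly number 5875. Contig 1, LSS_UF_22171, had levels with a lowest, median and highest value of -3.59, -1.63 and 0.25 in Longview fish, -4.11, -2.06 and -0.17 in Columbia City fish, and -2.18, -0.84 and -0.18 in Skamania fish. Contig 3, LSS_UF_22172, had -1.16, 0.54 and 2.84 in Longview fish, -1.52, 0.38 and 2.22 in Columbia City fish, and 0.30, 1.54 and 2.46 in Skamania fish. Both probes ranged widely within each site, the sites overlapped, and contig 3 was brighter in every fish. The signals were 5.48-fold apart, and the log2 difference had an SD of only 0.181 over 21 fish. Pearson's r was 0.99 and Spearman's rho 0.98, and r was 0.98 without the 2 fish farthest from the median of contig 1. Of the bright probes outside the group, LSS_UF_20427 was most like both, with r of 0.91 and 0.90 over 21 fish. Of the 8 fish with the highest level of LSS_UF_10838, a probe that is no member, 6 were among the 8 highest for LSS_UF_22171 and 7 for LSS_UF_22172. The same count over all bright probes is not given, so this is not shown to be particular to the pair.

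Assembly number 4466 showed the same steadiness with almost equal signals. Contig 1, LSS_UF_13689, had lowest, median and highest levels of -1.24, 0.08 and 1.15 in Longview fish, -0.49, 0.44 and 1.54 in Columbia City fish, and -0.67, 0.40 and 1.88 in Skamania fish. Contig 2, LSS_UF_13690, had -1.31, -0.16 and 0.98 in Longview fish, -0.52, 0.02 and 1.36 in Columbia City fish, and -0.61, 0.22 and 1.52 in Skamania fish. The contigs rose and fell together from fish to fish by nearly the same amount. Their r was 0.98 with rho 0.98, the signals were 1.17-fold apart, and the difference had an SD of 0.134. The most alike bright probes outside the group, LSS_UF_10698 and LSS_UF_12487, reached only 0.77 and 0.76.

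In assembly number 6093, LSS_UF_23474 was 1.77-fold above LSS_UF_24602, with r of 0.98, rho of 0.96 and an SD of the difference of 0.120, the smallest of all pairs. In assembly number 54 both contigs were among the brighter probes, with mean levels of 6.88 ± 0.61 for LSS_UF_10359 and 5.97 ± 0.65 for LSS_UF_10293 (SD, n = 21). These were 1.87-fold apart with r of 0.98 and an SD of the difference of 0.127. A probe of another name type, LSS_UF_13442, had r of 0.93 and 0.94 with this pair, so the pattern was not held by the 2 sisters alone. Assembly number 12768 was named for its small SD of 0.148. Its probes LSS_UF_16568 and LSS_UF_16569 hardly varied, with SDs over fish of 0.21 and 0.25, and r was 0.81.

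Many of the highly correlated pairs had unequal signals. Over the 38 pairs with r of at least 0.8, the signals were 1.1-fold to 58.3-fold apart, with a median of 3.97-fold. The largest gap was in assembly number 1825, where LSS_UF_17561 stood at a mean level of 3.65 and LSS_UF_17562 at -2.21, with r of 0.81 and an SD of the difference of 0.189. In assembly number 1592, LSS_UF_10236 was 27.1-fold above LSS_UF_24129 with r of 0.98. All 38 pairs came from different assembly numbers, 32 of them from groups of 2 qualifying contigs, and 23 were contigs 1 and 2. Without the 2 farthest fish, 26 of the 38 kept r at 0.8 or more, and the lowest was 0.46, for LSS_UF_21822 and LSS_UF_21823 of assembly number 6126, whose relation rests on those fish.

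**Figure D2:**
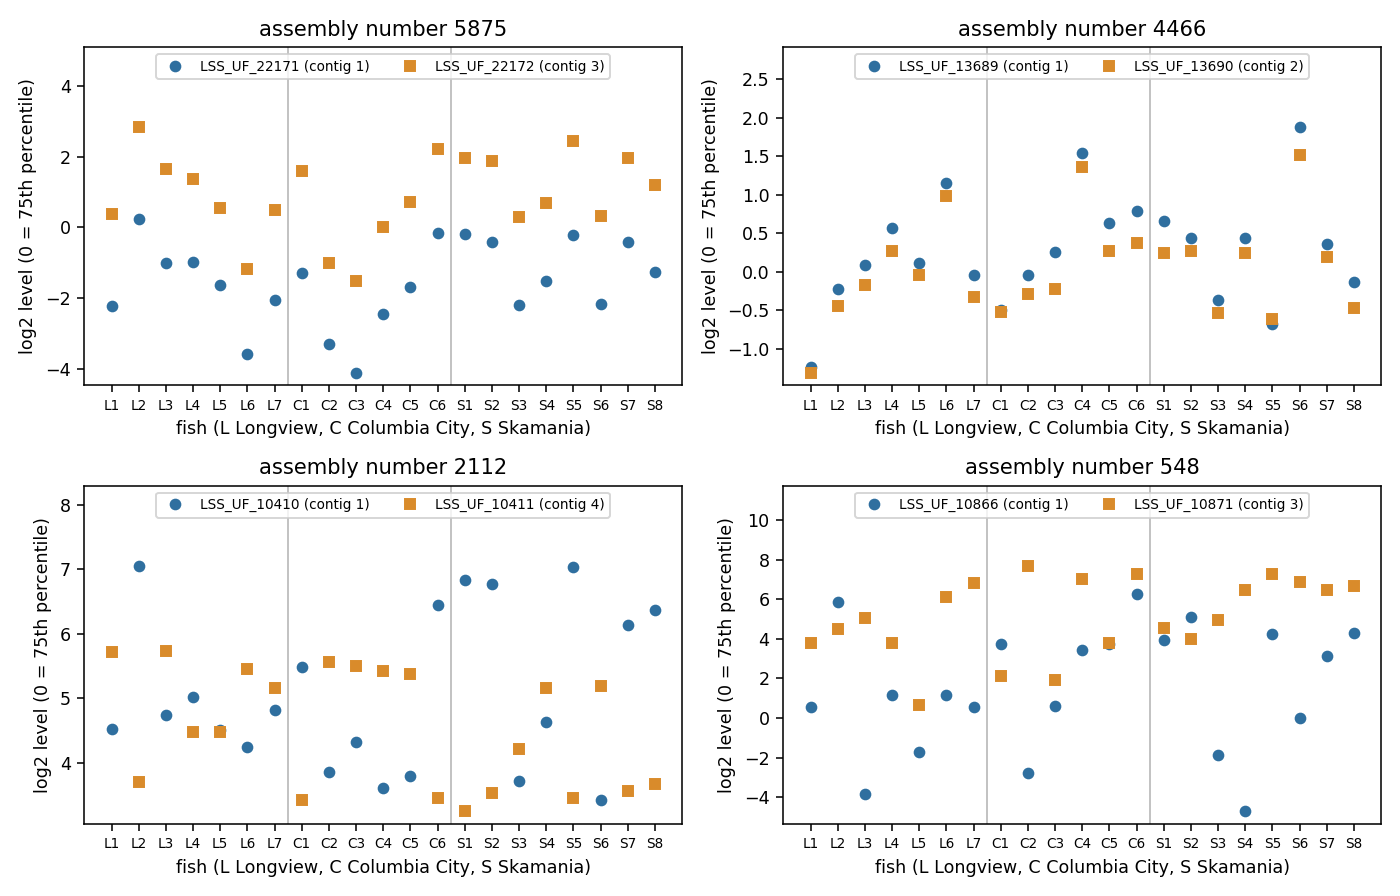
Log2 level (vertical axis, 0 is the 75th percentile of an array) of both sisters in each of the 21 fish (horizontal axis; L Longview, C Columbia City, S Skamania, numbered by replicate) for 4 assembly numbers. The sisters of 5875 and 4466 move together with r of 0.99 and 0.98, those of 2112 exchange their order between fish, and those of 548 vary widely without relation (r of 0.03).

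The median spread of the sister difference over fish was smaller than that of other pairs. Its SD over fish had a median of 0.606 in the 308 pairs and 0.818 in other pairs of the same brightness. As a measure of technical noise alone, not matched in brightness, 25 bright probes printed 10 times were used. For each probe, the median SD of the difference between 2 of its spots was taken. Over the 25 probes these medians had a median of 0.0949 and a highest value of 0.471. Single pairs of spots can exceed that highest value. No sister pair lay below 0.0949, and 98 of 308 lay below 0.471. At the wide end, 49 pairs had an SD of at least 1, and 2 had at least 2.

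Signals of sisters were often far apart. The absolute mean difference had a median of 1.90 on the log2 scale in the 308 pairs and 1.99 in other pairs of the same brightness. Matching the brightness of both probes largely sets the second value in advance, so nothing is concluded from their likeness. Over all other pairs, not matched, the median was 2.025. The difference between sisters was at least 2-fold in 214 pairs and at least 16-fold in 51, and under 2-fold in 94. The same sister was brighter in all 21 fish in 210 pairs, and the lower contig number was the brighter in 169 of 308. The median r was 0.402 in the 94 pairs under 2-fold apart, 0.395 in the 65 pairs 2-fold to 4-fold apart, 0.349 in the 98 pairs 4-fold to 16-fold apart and 0.143 in the 51 pairs at least 16-fold apart.

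The widest gap of all 2078 pairs was in assembly number 6675. LSS_UF_23127 had lowest, median and highest levels of 7.39, 7.88 and 8.93 in Longview fish, 7.74, 8.44 and 8.95 in Columbia City fish, and 7.70, 8.05 and 8.80 in Skamania fish. Its sister LSS_UF_24610 had -2.60, -1.61 and -0.27 in Longview fish, -2.30, -1.65 and -0.93 in Columbia City fish, and -3.04, -1.73 and -1.16 in Skamania fish. The bright contig was high and steady in every fish while its sister was dim in every fish. The signals were 971-fold apart, r was 0.09, and the difference had an SD of 0.792.

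**Figure D3:**
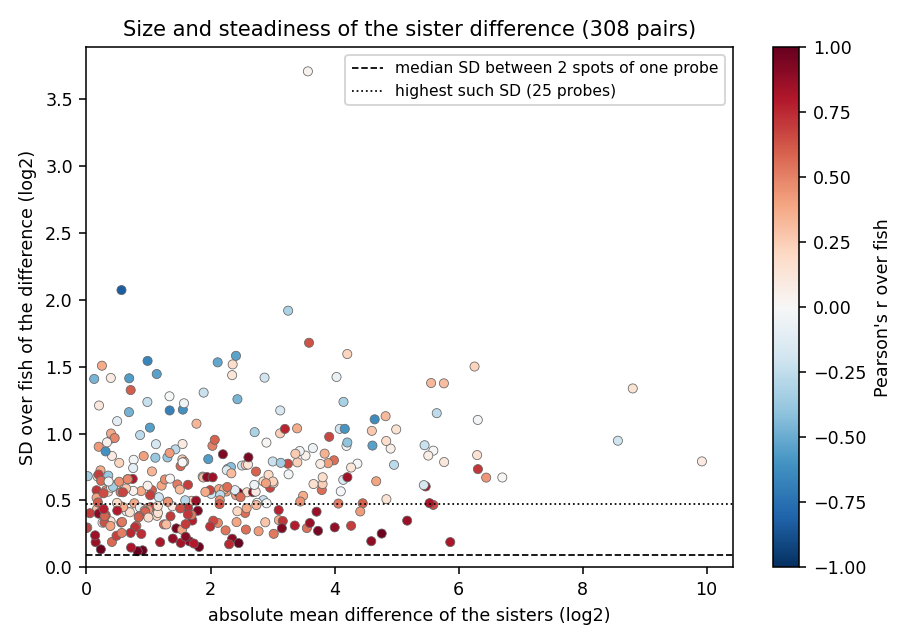
SD over 21 fish of the log2 difference between sisters (vertical axis) against the absolute mean difference (horizontal axis) for the 308 pairs outside assembly number 4, coloured by r. For each of 25 probes, the median SD between 2 of its own spots was taken. The dashed line at 0.0949 and the dotted line at 0.471 are the median and highest of these 25 values. No pair lies under the dashed line and 98 lie under the dotted one.

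Median r differed with contig number, group size, probe number and brightness, which overlap among themselves. Contigs 1 and 2 of a group formed 122 of the 308 pairs, with a median r of 0.445, against 0.229 in the 186 pairs of other contig numbers. Groups of 2 qualifying contigs had a median r of 0.418 over 186 pairs, against 0.194 over the 122 pairs from groups of 3 to 6. Within the groups of 2 it was 0.487 over the 113 pairs with consecutive probe numbers and 0.238 over the 73 others. Pairs whose probe names carry consecutive numbers had a median r of 0.487 over 132 pairs, against 0.177 over 176 pairs with other numbers, and they supplied 26 of the 38 pairs with r of at least 0.8. What the numbering of probes stands for was not stated. Consecutive numbers also went with higher r among 3564 pairs that were not sisters, where the median r was 0.090 and 4.35% reached 0.8. By the brightness class of the dimmer sister, with 4 classes of equal size, the median r was 0.222, 0.389, 0.341 and 0.432 from the dimmest to the brightest. Nearness of the spots on the array made little difference to the median r. It was 0.370 in the 59 pairs under 40 spot positions apart and 0.329 in the 249 pairs farther apart. An r of at most -0.5 was found in 0 of the near pairs and in 6.02% of the far ones.

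A sister was often not the closest match. Of the 460 members outside assembly number 4 with a value on every array, 60, or 13.0%, had a sister as the most correlated of 7000 possible partners, and 97, or 21.1%, had one among the best 10. The relation was mutual in 26 pairs. The median rank of the nearest sister was 510.

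A small number of pairs ran in opposite directions. In 15 of the 308 pairs, from 14 assembly numbers, r was at most -0.5. The share, 4.87%, was close to the 5.61% of other pairs of the same brightness. Only 1 of the 15 had consecutive probe numbers.

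That one was assembly number 2112, with the lowest r outside assembly number 4. Contig 1, LSS_UF_10410, had lowest, median and highest levels of 4.24, 4.73 and 7.05 in Longview fish, 3.61, 4.09 and 6.44 in Columbia City fish, and 3.42, 6.25 and 7.04 in Skamania fish. Contig 4, LSS_UF_10411, had 3.70, 5.16 and 5.74 in Longview fish, 3.43, 5.40 and 5.57 in Columbia City fish, and 3.25, 3.61 and 5.18 in Skamania fish. In some fish of every site contig 1 was far above contig 4, and in others the order was turned round. The mean difference was only 0.56, but its SD over fish was 2.07.

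The fish in which contig 1 was far above contig 4 were also those highest for a probe outside the group. The probe LSS_UF_10838 had levels of at least 7.39 in 8 fish and from -5.37 to 6.54 in the other 13. The number 8 was chosen, and the other 13 fish covered most of the range of this probe. These 8 fish were the same 8 with the highest LSS_UF_10410 and the same 8 with the lowest LSS_UF_10411. They were 1 Longview, 2 Columbia City and 5 Skamania fish. In these 8 fish LSS_UF_10410 lay between 5.48 and 7.05 and LSS_UF_10411 between 3.25 and 3.70. In the other 13 fish LSS_UF_10410 lay between 3.42 and 5.02 and LSS_UF_10411 between 4.21 and 5.74. Neither probe overlapped between the 2 sets, which were taken from measured levels, so no test is given. The share of all bright probes that also did not overlap is not given here, so this is not shown to be particular to the pair. Within the 8 fish r was 0.07, and within the other 13 it was -0.06, against -0.83 over all 21 fish. The sets coincide with the extremes of both probes, which narrows the range within each and by itself brings r nearer to 0 there. With the first principal component of the 7001 probes with complete values removed, which held 30.7% of the variance, r was 0.09.

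The next lowest values outside assembly number 4 were named after the values were seen. In assembly number 2664, LSS_UF_17152 and LSS_UF_12817 had r of -0.67, and in assembly number 2312, LSS_UF_17614 and LSS_UF_12263 had -0.66. In assembly number 333, LSS_UF_19211 and LSS_UF_15286 had -0.63. Without the 2 farthest fish these were -0.55, -0.55 and -0.73.

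The difference between sisters varied most in assembly number 548. Contig 1, LSS_UF_10866, had lowest, median and highest levels of -3.83, 0.56 and 5.89 in Longview fish, -2.76, 3.60 and 6.28 in Columbia City fish, and -4.71, 3.56 and 5.11 in Skamania fish. Contig 3, LSS_UF_10871, had 0.67, 4.52 and 6.82 in Longview fish, 1.93, 5.42 and 7.70 in Columbia City fish, and 4.02, 6.47 and 7.27 in Skamania fish. Each contig differed by a large factor between fish of the same site, and the levels of the 2 contigs showed no relation. The r was 0.03, and the difference had an SD of 3.71, the largest of all pairs. Of the 8 fish with the highest LSS_UF_10838 level, 7 were among the 8 highest for LSS_UF_10866 and 3 for LSS_UF_10871. Here too the same count over all bright probes is not given.

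Assembly number 2951 joined a wide difference with a positive r. LSS_UF_10134 had a mean level of 6.94 ± 2.18 and LSS_UF_10133 one of 3.35 ± 1.54 (SD, n = 21), with r of 0.64 and an SD of the difference of 1.68. In assembly number 258, LSS_UF_21999 and LSS_UF_11831 had an SD of the difference of 1.92. There r was -0.32 over all fish and 0.20 without the 2 farthest, so its direction rests on those fish. Within sites r was -0.74 in Longview fish, 0.65 in Columbia City fish and 0.64 in Skamania fish. The SD of the difference was 2.82, 0.74 and 0.62 in the same order. Both pairs were named after the values were seen.

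The 60 contigs of assembly number 4 did not vary together. Their 1770 pairs had a median r of -0.007, and 4 pairs, or 0.226%, reached 0.8, against a median of 0.007 and 0.205% in other pairs of the same brightness. Within the 3 slides the median r lay between -0.011 and 0.006. Values above the 95th percentile of other pairs were found for 6.61% of the pairs and values below the 5th percentile for 6.27%. Mean levels of the 60 contigs ran from -2.98 to 6.51, and SDs over fish from 0.206 to 2.65. Of 59 members with complete values, 1 had a sister as its closest partner. It was LSS_UF_24518, contig 770, matched to LSS_UF_24519, contig 935, with r of 0.82 and rho of 0.90. In 59 pairs, all with LSS_UF_23597, the fish fell into 2 clusters, so no r is printed for them singly.

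A few contigs of assembly number 4 took part in most of the extreme pairs, which follows in part from how pairs were picked. A very bright contig favours a large mean difference, and a very variable one favours a large SD. LSS_UF_10859, contig 5, was the brightest, with lowest, median and highest levels of 5.20, 6.76 and 8.22 in Longview fish, 5.83, 7.19 and 7.47 in Columbia City fish, and 4.31, 5.93 and 7.89 in Skamania fish. It stood 718-fold above LSS_UF_11835, 704-fold above LSS_UF_12590 and 568-fold above LSS_UF_19590. With LSS_UF_21554, contig 545, its r was -0.82, rho -0.74, and -0.70 without the 2 farthest fish.

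LSS_UF_24518 was the most variable of the 60. It had lowest, median and highest levels of -3.35, 4.31 and 6.36 in Longview fish, 2.95, 4.50 and 6.20 in Columbia City fish, and 2.53, 5.25 and 6.71 in Skamania fish. Its differences from LSS_UF_10859, LSS_UF_16501 and LSS_UF_21570 had SDs of 3.47, 3.41 and 3.17 over fish. The fish whose removal lowered these SDs most was not the same throughout. Without Longview replicate 1 the SD was 2.85 for LSS_UF_10859 and 2.61 for LSS_UF_21570. Without Longview replicate 6 it was 2.78 for LSS_UF_16501.

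Among the pairs of assembly number 4 with the lowest r were also LSS_UF_12061 with LSS_UF_17622, at -0.83 over the 20 fish with both values, and LSS_UF_15878 with LSS_UF_16965, at -0.81. Without the 2 farthest fish these were -0.74 and -0.68. LSS_UF_18095 with LSS_UF_16965, just outside the named pairs, had -0.81 as well. An r of at most -0.5 was found in 7.06% of the pairs of assembly number 4 and in 5.75% of other pairs of the same brightness.

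**Figure D4:**
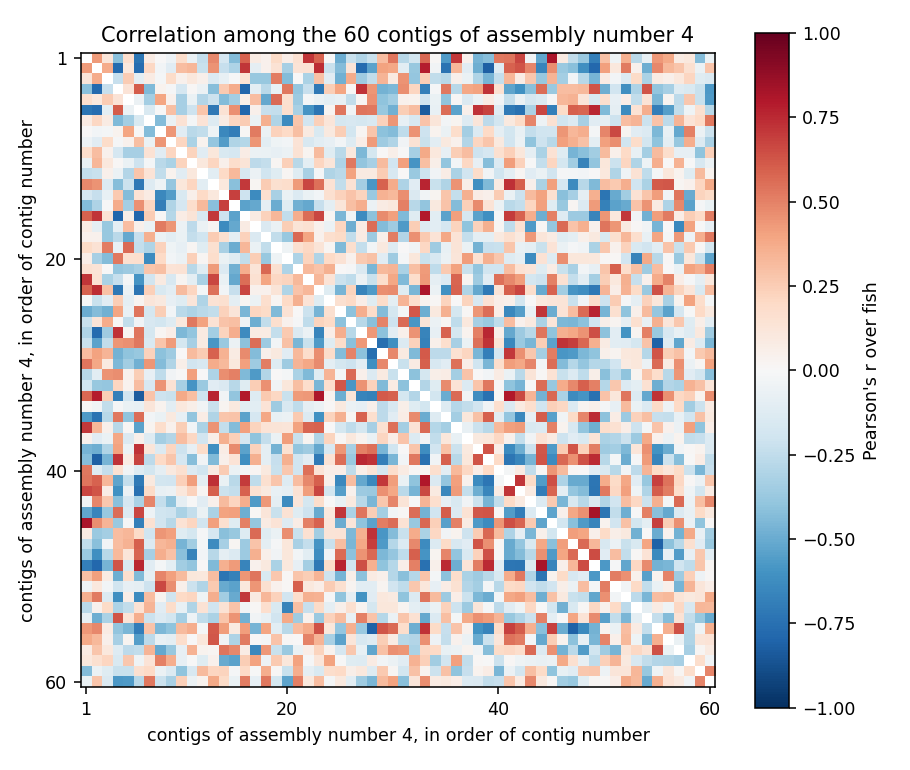
Pearson's r over fish (colour) between all 60 qualifying contigs of assembly number 4, in order of contig number on both axes, with the diagonal left blank. Red and blue cells are mixed, with a median r of -0.007.

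Assembly number 1799, the next largest group, held 6 contigs and 15 pairs. Its contig 4, LSS_UF_21853, had a mean level of 2.66, and the other 5, LSS_UF_24160, LSS_UF_14245, LSS_UF_22615, LSS_UF_22381 and LSS_UF_14256, lay between -2.29 and -1.14. The r ran from -0.40 to 0.70 with a median of 0.18. The highest value joined LSS_UF_22615 and LSS_UF_14256, but it was 0.27 without the 2 farthest fish. LSS_UF_24160 and LSS_UF_14256, with equal mean levels of -1.14, had r of 0.67, and 0.62 without the 2 fish farthest for LSS_UF_24160. Without the 2 farthest fish, picked for each pair by its lower contig number, r was also 0.61 in 3 pairs. These were LSS_UF_22615 with LSS_UF_22381, LSS_UF_14245 with LSS_UF_22615 and LSS_UF_14245 with LSS_UF_14256. Over all fish they had 0.40, 0.37 and 0.18.

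Few members differed between sites. With limma over the 11036 probes that were well above background on at least 6 arrays, 1 of 521 members passed an adjusted p under 0.05 for Longview minus Skamania. In that comparison 2.84% of all probes tested passed, 2.72% higher and 0.118% lower in Longview fish, and 0.453% of the 7064 bright probes passed. The median difference of the members was 0.07, against 0.05 over the bright probes and 0.11 over all probes tested. No member passed for Columbia City minus Skamania or for Longview minus Columbia City, where 0% of all probes did. At an unadjusted p under 0.05, limma gave 41 members for Longview minus Skamania, 42 for Columbia City minus Skamania and 56 for Longview minus Columbia City. These are 7.87%, 8.06% and 10.7% of the members, against 8.51%, 7.66% and 8.15% of the bright probes, and 13.8%, 9.26% and 9.89% of all probes tested. The shares of the members were near those of the bright probes for Longview minus Skamania and for Columbia City minus Skamania. For Longview minus Columbia City the share of the members was higher, at 10.7% against 8.15%, and this gap was not tested. An F test over the 3 sites passed 2 members, against 1.76% of all probes and 0.212% of the bright ones. At an unadjusted p under 0.05 the F test gave 45 members, or 8.64%, against 8.68% of the bright probes and 13.3% of all.

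The member that passed for Longview minus Skamania was LSS_UF_14805, contig 1 of assembly number 2899. Its mean was lowest in Skamania fish and about equal in Longview and Columbia City fish. Its lowest, median and highest levels were 4.73, 5.17 and 5.67 in Longview fish, 4.26, 5.06 and 6.22 in Columbia City fish, and 3.74, 4.08 and 4.74 in Skamania fish. Longview and Skamania fish overlapped only narrowly, in a probe picked because it passed, and the share of all bright probes that overlapped as little is not given. Columbia City minus Skamania was 1.02, SE 0.29, at a limma adjusted p of 0.417, and Longview minus Columbia City was 0.02, SE 0.30. The difference of Longview minus Skamania came to 1.04 on the log2 scale, SE 0.28, at a limma adjusted p of 0.0486. Within slides 1, 2 and 3 it was 1.25, 0.89 and 0.99. The call was lost with normexp background correction, quantile normalization, median centring, the authors' log2 values, only probes bright on all arrays, or slide or the replicate number as a block (slide as a random one), each of which left 0 members. Of all 11036 probes, 313 passed in the main setting and 1 with normexp. With quantile normalization, median centring and the authors' values 168, 295 and 170 passed. With the slide and replicate blocks 300 and 258 passed. Among only the probes bright on all arrays, 1 of 7064 passed. The call was also lost when Columbia City replicate 2, Longview replicate 1, 3, 4, 5 or 6, or Skamania replicate 1, 2, 4, 5, 7 or 8 was left out. Then 211 to 326 of all probes still passed.

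Its sister LSS_UF_14806, contig 2, moved less. It averaged 4.46 ± 0.22 in Longview fish (SD, n = 7), 4.21 ± 0.27 in Columbia City fish (SD, n = 6) and 4.00 ± 0.32 in Skamania fish (SD, n = 8). For Longview minus Skamania limma gave 0.46, SE 0.17, at an adjusted p of 0.188. The difference between the sisters averaged 0.74 ± 0.38 in Longview fish and 0.17 ± 0.32 in Skamania fish. These differ by 0.58 (two-sided exact permutation test, p = 0.00777, adjusted p = 0.00777 over 2 such tests). The pair and the 2 sites were chosen because 1 sister had passed in that comparison, so this p is not independent of the choice.

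LSS_UF_10422, contig 1 of assembly number 1043, passed the F test (limma adjusted p = 0.0353). It averaged -2.96 ± 0.40 in Longview fish (SD, n = 7), -1.95 ± 0.86 in Columbia City fish (SD, n = 6) and -3.56 ± 0.65 in Skamania fish (SD, n = 8). Its mean over all fish, -2.90, lay toward the dim end of the members, whose mean levels began at -3.52. For Columbia City minus Skamania limma gave 1.60, SE 0.34, at an adjusted p of 0.197. Its sister LSS_UF_16226, contig 5, averaged 0.40 ± 0.92 in Longview fish, 0.17 ± 0.68 in Columbia City fish and 0.10 ± 0.57 in Skamania fish, and its Columbia City minus Skamania difference was 0.07, SE 0.38. The sister difference averaged -2.12 ± 0.58 in Columbia City fish and -3.66 ± 0.47 in Skamania fish. These differ by 1.53 (two-sided exact permutation test, p = 0.000666, adjusted p = 0.00133 over 2 such tests), again in a pair chosen for the passing member. The 2 sites compared were also those with the highest and lowest mean of that member. This p is therefore not independent of either choice, and the adjustment does not cover them. Within slides 1, 2 and 3 the level of LSS_UF_10422 was higher in Columbia City than in Skamania fish by 3.41, 1.33 and 0.69, with a single Columbia City fish on slide 1.

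The other member to pass the F test was LSS_UF_11143 of assembly number 4 (limma adjusted p = 0.0307). It averaged -1.10 ± 0.33 in Longview fish (SD, n = 7), -0.26 ± 0.13 in Columbia City fish (SD, n = 6) and -0.94 ± 0.30 in Skamania fish (SD, n = 8). All Columbia City fish, at -0.37 to -0.09, lay above all Longview fish, at -1.51 to -0.64, and above all Skamania fish, at -1.41 to -0.46. The probe was picked because it passed the F test. The share of all bright probes that separate a site in this way is not given, so this is not shown to be particular to the probe. For Longview minus Columbia City limma gave -0.83, SE 0.18, at an adjusted p of 0.158, and within slides 1, 2 and 3 it was -0.80, -0.93 and -0.66. The number of members that passed the F test fell to 0 with normexp background correction, with only probes bright on all arrays, and with slide as a fixed block, and also without Columbia City replicate 2 or 3 or Longview replicate 1 or 3. Of all 11036 probes, 194 passed in the main setting, 0 with normexp and 180 with slide as a fixed block. With only probes bright on all arrays 1 of 7064 passed. Without those fish, in the same order, 194, 187, 128 and 152 of all probes passed.

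**Figure D5:**
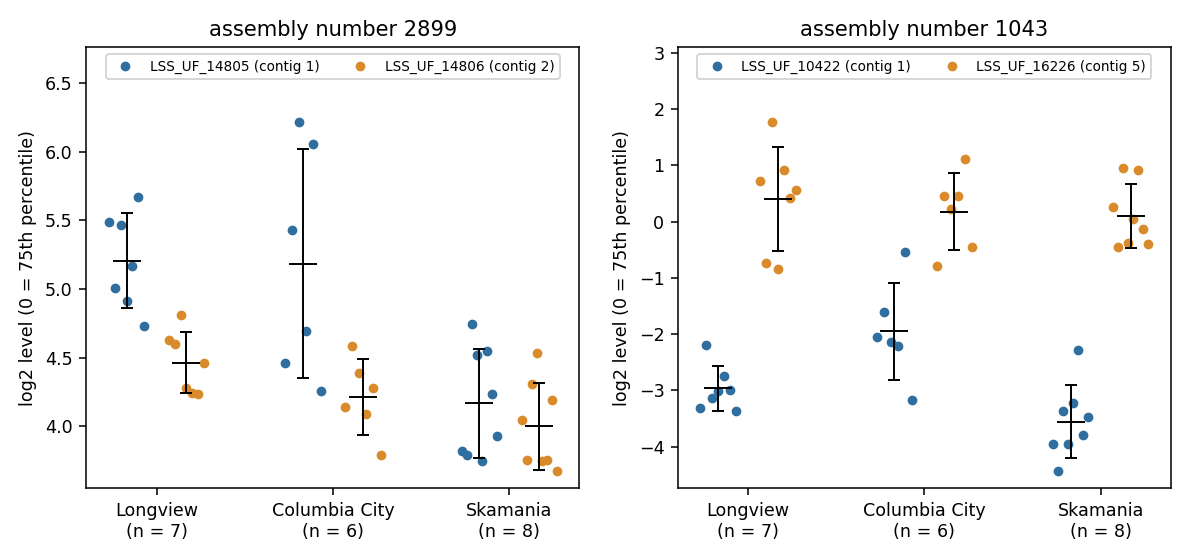
Log2 level (vertical axis, 0 is the 75th percentile of an array) of both sisters of assembly numbers 2899 (left) and 1043 (right) by site (horizontal axis). Points are fish, black lines and bars the mean and SD. LSS_UF_14805 is higher than in Skamania fish by 1.04 in Longview fish and by 1.02 in Columbia City fish. LSS_UF_10422 averages -1.95 in Columbia City fish and -3.56 in Skamania fish, while the sisters differ less.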

How the data were processed

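Per the labels' protocols, column-purified, DNase-treated RNA was labelled with Cy3. The authors' deposited scanner files hold spot intensity values on a linear scale. The submitters' processing notes name Agilent Feature Extraction 9.1, and the file headers name 10.1.1.1. The authors also deposited log2 values for these arrays in a table of their own; no label or header states how they were normalized.

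Spots of a probe were averaged as log2 processed signals, without 555 spots marked as outliers among 319368 spot values, and the 75th percentile of each array was subtracted. A probe printed 10 times was well above background where most of its spots were. In 11 names a letter pair replaced the contig letter, and these were left out. Assembly and contig numbers were read from the names, and no gene name or sequence was used. The members, lists and pairs were chosen with earlier results of these data known.

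Pearson's r, Spearman's rho, the mean difference and its SD over fish were computed for every sister pair, over the fish with both values. The 2 farthest fish of a pair were those farthest from the median level of its lower contig number. They were picked for each pair separately, and the level of the other sister played no part. All 24501481 other pairs among the 7001 bright probes with complete values, weighted to the same 4 brightness classes, gave the comparison values. Where fish formed 2 clusters (a gap of at least 2 log2 units with at least 3 fish on each side), no single r is printed. The pairs described are the 4 with the highest and lowest r, the largest and smallest SD of the difference and the largest mean difference, all contigs of the 2 largest groups (those of assembly number 4 by range), and each member that passed a site test. Pairs named outside assembly number 4 were added after values were seen.

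Site differences were fitted in R 4.3.3 (limma 3.58.1), with a mean for each site, 18 residual degrees of freedom and two-sided tests, with Benjamini-Hochberg adjustment over all 11036 probes. The fish are separate animals. The number of arrays limits the precision. The scripts were tested on simulated data. Alternatives were normexp (offset 50), quantile and median scaling, the authors' values, other filters, slide and replicate blocks, ranks, a removed principal component and each fish left out. Pairs were handled with Python 3.11.15, numpy 2.4.6, pandas 2.3.3 and scipy 1.17.1, and figures with matplotlib 3.10.9.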

Additional observations from a re-analysis of the deposited data

Results flagged for a closer look

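Among the 22 pairs examined, the sister difference was tested for an outlying fish within each site, in 66 sets of fish. A fish stood apart by Dixon's test in 4 of them, and chance marks about 1 in 20. In assembly number 2112, the difference LSS_UF_10410 minus LSS_UF_10411 was 3.35 in Longview replicate 2, while the other Longview fish lay between -1.22 and 0.55. This is the 1 Longview fish among the 8 with the highest LSS_UF_10838. In assembly number 2664, LSS_UF_17152 minus LSS_UF_12817 was 0.76 in Longview replicate 6, with the others between -2.83 and -1.35, and 0.76 in Skamania replicate 6, with the others between -3.09 and -1.34. In assembly number 6093, LSS_UF_23474 minus LSS_UF_24602 was 1.13 in Skamania replicate 7, with the others between 0.73 and 0.89. The causes were not tested.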

How the results depend on the processing

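The median r of the 308 pairs outside assembly number 4, a split added after seeing the data, was 0.298 to 0.357 under the scaling, filter, batch, rank and component alternatives, and 0.411 with 1 pair per assembly number. Pairs with r of at least 0.8 numbered 28 to 47 there. Over all pairs the median r of 0.028 became 0.061 with median centring and 0.412 with 1 pair per assembly number. The median absolute difference (1.96 over all pairs, 1.90 outside number 4) became 1.68 and 1.64 with normexp, 2.51 and 2.15 with probes bright on at least 11 arrays, and 1.68 and 1.66 with 1 pair per number. The median SD of the difference (0.798 and 0.606) became 0.680 and 0.529, 0.882 and 0.678, and 0.576 and 0.576 in the same order. These shifts follow in part from which pairs enter; the cause was otherwise not tested.

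Leaving out 1 fish gave a median r of 0.022 to 0.038 over all pairs and 0.307 to 0.370 outside number 4, 35 to 45 and 34 to 42 pairs with r of at least 0.8, median absolute differences of 1.95 to 1.98 and 1.88 to 1.94, and median SDs of 0.762 to 0.805 and 0.592 to 0.616. The r of LSS_UF_10410 and LSS_UF_10411 changed sign, being 0.0912 with the first principal component removed. Of 198 values of r for named pairs under alternatives, that was the 1 reversal of an r of at least 0.3 in size. Of the 198, 26 moved by more than an error estimated from leaving out each fish in turn. Of 118 summary values under alternatives other than leaving out a fish, 31 moved by more than that error or, for counts, by more than 1.5-fold.

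Members called for Longview minus Skamania numbered 0 with normexp, quantile normalization, median centring, the authors' values, only probes bright on all 21 arrays or slide as a random block, and 2 at an adjusted p under 0.1. Over all 11036 probes, that comparison called 313 in the main setting, 1 with normexp and 500 at an adjusted p under 0.1. It called 168 with quantile normalization, 295 with median centring, 170 with the authors' values and 300 with slide as a random block. The filter to bright probes left 1 of 7064. The F test called 0 members with normexp, the all-array filter or slide as a fixed block, 1 with quantile normalization, median centring or the authors' values, and 6 at an adjusted p under 0.1. Of all 11036 probes it called 194 in the main setting, 0 with normexp and 180 with slide as a fixed block. At an adjusted p under 0.1 it called 323. With quantile normalization, median centring and the authors' values it called 102, 184 and 101. The all-array filter left 1 of 7064. With 1 fish left out, limma called 0 to 2 members for Longview minus Skamania, 0 to 0 for Columbia City minus Skamania, 0 to 2 for Longview minus Columbia City (2 without Columbia City replicate 6) and 0 to 4 by the F test. Over all 11036 probes it then called 211 to 379 for Longview minus Skamania and 128 to 343 by the F test. Without Columbia City replicate 6 it called 191 of all probes for Longview minus Columbia City. With the replicate number as a block, 0 members were called for Longview minus Skamania, beside 258 of all probes. By the F test 1 member was called, beside 170 of all probes. The numbers were not taken to pair the fish. Residuals of same-numbered fish correlated with a median of -0.195, against -0.032 for fish of other numbers, which does not settle what the numbers stand for. For Columbia City minus Skamania limma called 0 members under every setting run, and at most 3 of all probes. In the main setting 42 members had an unadjusted limma p under 0.05.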
